A study of Homo sapiens with 8 samples.

Results

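The S100 genes encode small calcium-binding proteins, and 10 of them were followed across 2 sublines of the breast epithelial cell line MCF-10A. The members were S100A2, S100A4, S100A6, S100A7, S100A8, S100A9, S100A10, S100A11, S100A14 and S100P, taken by gene symbol from a count table that lists 60617 genes. All 10 had enough counts to be tested, among 17693 tested genes and 31967 genes with at least 1 count. MCF-10A is an established, non-tumorigenic human mammary epithelial line. It was grown in medium with horse serum, epidermal growth factor, hydrocortisone, insulin and cholera toxin, so all groups shared those agents.

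The series comprises 8 poly(A)-selected RNA libraries in 4 groups of 2: Empty cells left untreated, Empty cells given 1 µM JG-98 for 12 h, NeuT cells left untreated, and NeuT cells given the same dose for the same time. JG-98 is a small-molecule inhibitor of Hsp70 chaperones, and the stated purpose was to compare sensitivity to it in transformed cells. The labels name the sublines Empty and NeuT without saying what each carries, whether either is 1 clone, or whether the treated cells had a vehicle control. They do not say whether the 2 replicates of a group were separate cultures, so every p-value measures the spread between these libraries, which may be technical.

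S100 proteins carry a pair of EF-hand calcium-binding loops and mostly work as dimers, which on binding calcium expose a surface that grips other proteins. Inside the cell their partners include annexins and cytoskeletal proteins. Some leave the cell and act on receptors such as RAGE and TLR4, and the S100A8 and S100A9 pair (calprotectin) also starves microbes of metal ions. Most S100 genes lie together on chromosome 1 beside genes of the skin barrier. In stratified epithelia S100A2 is known from the basal layer, and S100A7, S100A8 and S100A9 from inflamed or wounded skin.

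Library totals ran from 37341458 counts in Empty with JG-98 replicate 1 to 56861971 in Empty with JG-98 replicate 2, and the 10 members took 0.649% to 0.810% of each total. Levels are given as CPM, that is, counts divided by a library size adjusted with edgeR's TMM factors (trimmed mean of M-values), on which 3 counts equal 0.0512 to 0.0787 CPM. The treated NeuT replicates stood farthest apart, with a median absolute log2 difference between replicates of 0.106 over genes, against 0.0537 to 0.0783 in the other groups. Basal epithelial markers, chosen to check the labelled line, were abundant. The 8 of them summed to 25509 to 26904 CPM in the Empty libraries and 34553 to 36417 in the NeuT libraries. The sums of 8 luminal markers were 3789 to 4015 CPM in Empty and 4202.5 to 4403 CPM in NeuT. In untreated NeuT 6 basal markers were higher and 1 lower, and 3 luminal markers higher and 2 lower, at an adjusted p under 0.05. Of all tested genes 42.0% were called. Of 10 myeloid markers, 4 were at 0 in all libraries and 7 stayed under 10 counts in every library, and PTPRC, which marks all leukocytes, had 0 to 4 counts. The myeloid sum was 5.38 to 7.59 CPM in Empty and 10.9 to 12.4 CPM in NeuT, nearly all of it CD14 (named after its values were seen). Of 8 fibroblast markers, 3 stayed under 10 counts in every library, and their sum was 8.56 to 9.92 CPM in Empty and 68.4 to 83.0 CPM in NeuT. DCN, named after its values were seen, carried most of that gap, at 2.47 to 3.58 CPM in Empty and 62.4 to 77.5 CPM in NeuT. The part of these marker differences in the S100 results was not tested. In bulk RNA, fewer cells of a type and less RNA per cell cannot be told apart.

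The sequences just upstream of 4 members are shown first, because these members had the widest range of levels over the 4 groups. Each is the 250 bases before the RefSeq transcript start (GRCh38.p14), 5′ to 3′ on the strand of the gene, and capitals mark matches to the motifs searched. For S100A8, which has 3 listed starts, and S100A2, which has 2, the start nearest the 5′ end of the counted gene was used; for S100A2 that start lies 2046 bases inside the gene as counted.
S100A8, chr1:153391074-153391323, minus strand: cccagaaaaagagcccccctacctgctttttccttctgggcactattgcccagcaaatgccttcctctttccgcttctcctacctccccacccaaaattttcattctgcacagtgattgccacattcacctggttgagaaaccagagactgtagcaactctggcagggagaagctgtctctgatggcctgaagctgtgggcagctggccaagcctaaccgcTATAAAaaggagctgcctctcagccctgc
S100A9, chr1:153357604-153357853, plus strand: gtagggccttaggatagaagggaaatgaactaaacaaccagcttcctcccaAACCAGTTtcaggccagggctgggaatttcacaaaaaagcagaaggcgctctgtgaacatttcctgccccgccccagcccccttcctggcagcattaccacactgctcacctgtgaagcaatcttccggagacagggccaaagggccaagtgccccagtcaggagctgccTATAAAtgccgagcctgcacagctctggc
S100A7, chr1:153460652-153460901, minus strand: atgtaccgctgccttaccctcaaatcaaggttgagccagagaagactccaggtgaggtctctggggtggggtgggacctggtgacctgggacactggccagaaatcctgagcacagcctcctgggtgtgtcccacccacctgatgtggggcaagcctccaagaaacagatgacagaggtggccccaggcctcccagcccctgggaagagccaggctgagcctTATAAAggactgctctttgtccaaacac
S100A2, chr1:153565845-153566094, minus strand: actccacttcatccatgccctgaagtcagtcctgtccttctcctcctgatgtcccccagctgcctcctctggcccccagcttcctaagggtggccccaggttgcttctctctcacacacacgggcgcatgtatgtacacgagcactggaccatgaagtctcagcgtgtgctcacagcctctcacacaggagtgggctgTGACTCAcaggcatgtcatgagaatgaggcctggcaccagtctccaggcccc

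The TATA box letters TATAAA, to which the basal transcription machinery binds, stood 29 to 24 bases upstream of the start in S100A8 and S100A9 and 28 to 23 bases upstream in S100A7. The same letters were in the windows of S100A4 and S100P, so 5 of the 10 members' windows held them. Of 35116 RefSeq promoter windows of the same length, searched on both strands, 10.7% held TATAAA. The S100A2 window had no TATAAA and held the AP-1 letters TGANTCA 52 to 46 bases upstream, which 6.57% of all windows held; no other member's window held them. The S100A9 window held the grainyhead letters AACNNGTT 199 to 192 bases upstream (3% of all windows), and only the S100A11 window, not shown, held the C/EBP letters TTGCNNAA (9.05% of all windows). None of the 10 windows held the NF-kB motif (3 G, 2 free bases, 3 T and 2 C in that order, in 1.73% of all windows) or the STAT letters TTCNNNGAA (6.57% of all windows). The dinucleotide CG occurred 24 times in the windows of S100A6 and S100A10, 15 times in that of S100A11 and 7 times in that of S100A4. It occurred 4 times in those of S100A2, S100A9, S100A14 and S100P, 2 times in that of S100A8 and 1 time in that of S100A7, and the median over all windows was 11. The starts used for S100A11, S100A4, S100A14 and S100A6 lie 10903, 4330, 661 and 253 bases inside the gene as counted. A match of letters describes the window and does not locate a bound factor.

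The first comparison asked how the untreated NeuT cells differed from the untreated Empty cells. In NeuT, 7 members were higher (S100A4, S100A6, S100A7, S100A8, S100A9, S100A10 and S100A11), 2 were lower (S100A2 and S100A14) and S100P did not pass the test, at an adjusted p under 0.05. The folds ran from 8.11 times higher for S100A8 to 0.376 times the Empty level for S100A2. Of all tested genes, 42.0% were called in this comparison, 21.2% higher and 20.8% lower, so the sublines differed across the transcriptome and not in the S100 genes alone. The median difference was 0.43 on the log2 scale over the 10 members and -0.02 over all tested genes. None of the 10 members' groups overlapped, which was also the case for 73.2% of all tested genes. Of all called genes 50.5% were higher in NeuT, and 40.7% when only total counts were used for scaling.

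**Figure D1:**
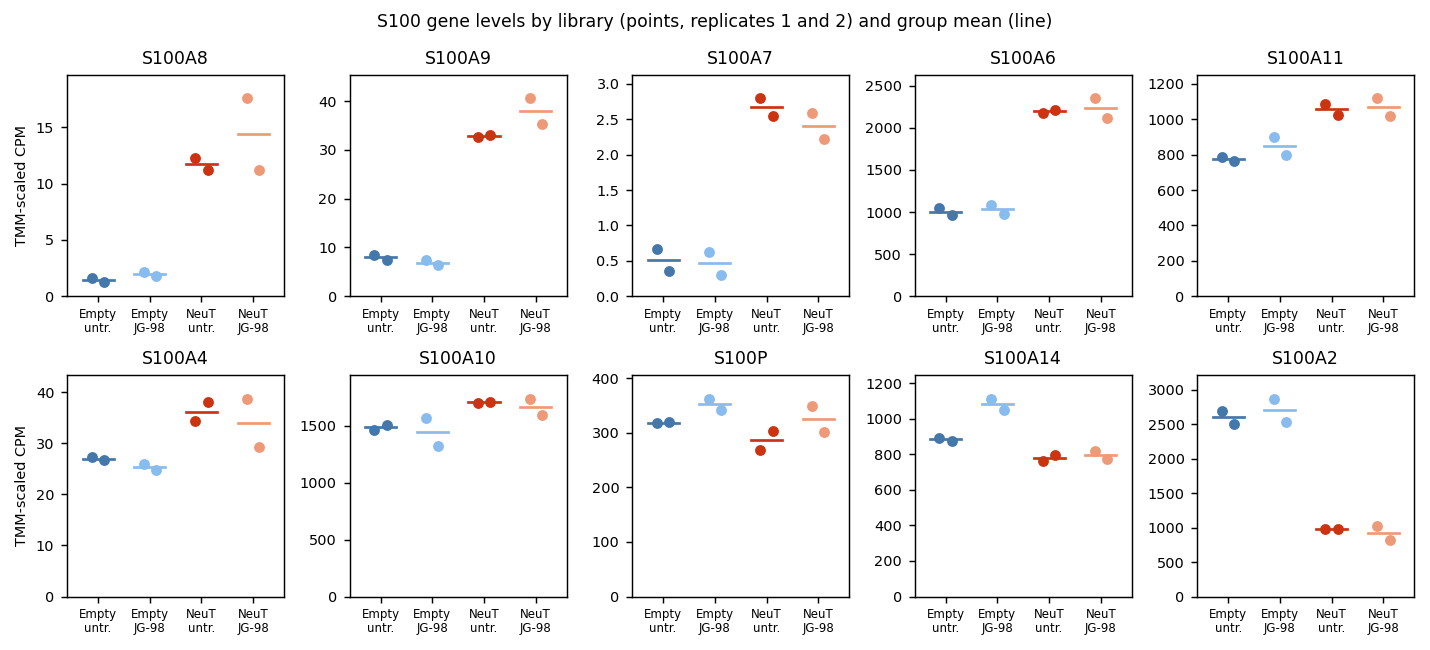
TMM-scaled CPM (vertical axis, linear from 0) of each of the 10 S100 genes in the 8 libraries, by group (horizontal axis), with 1 point per library and a line at the group mean. S100A7, S100A8, S100A9 and S100A6 sit higher in all 4 NeuT libraries than in any Empty library, and S100A2 sits lower.

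The secreted, antimicrobial members had the highest folds. S100A8, the smaller subunit of calprotectin, stood at 1.66 and 1.24 CPM in the untreated Empty libraries and at 12.3 and 11.2 CPM in the untreated NeuT libraries. The NeuT values lay well clear of the Empty ones, and the difference was 3.02 ± 0.22 on the log2 scale (SE of the edgeR fit, n = 2 per group, adjusted p = 2.74e-07). S100A9, the partner subunit, stood at 8.47 and 7.43 CPM in Empty and at 32.6 and 33.0 CPM in NeuT. Its replicates were close in both groups, and the difference was 2.04 ± 0.10 (adjusted p = 7.12e-11), a fold of 4.12. S100A7, known as psoriasin and active against bacteria on skin, stood at 0.669 and 0.351 CPM in Empty and at 2.80 and 2.54 CPM in NeuT. The Empty values rest on 38 and 20 counts and the NeuT values on 153 and 137, so S100A7 was the least precisely measured member. Its difference was 2.38 ± 0.32 (adjusted p = 1.15e-05), and it ranged from 1.99 to 2.92 when single libraries were left out. The 50-base words of S100A7 transcripts were 14.2% shared with S100A7A, a near copy that itself had at most 1 count in any library.

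Among members that work with annexins and the cytoskeleton, S100A6 had the widest difference. S100A6, known as calcyclin and tied to cell growth, stood at 1048.1 and 960.4 CPM in Empty and at 2176.8 and 2215.4 CPM in NeuT. The NeuT level was 2.19 times the Empty level, a log2 difference of 1.13 ± 0.065 (adjusted p = 5.35e-10). S100A11, a partner of annexin A1, stood at 788.0 and 765.4 CPM in Empty and at 1085.8 and 1025.4 CPM in NeuT, a difference of 0.44 ± 0.064 (adjusted p = 2.99e-05). S100A4, which binds non-muscle myosin and is known from motile and metastatic cells, stood at 27.3 and 26.6 CPM in Empty and at 34.4 and 37.99 CPM in NeuT. That was a difference of 0.42 ± 0.11 (adjusted p = 0.00483), about the size of that of S100A11 at a far lower level. S100A10, which pairs with annexin A2 at the plasma membrane and binds no calcium itself, stood at 1466.2 and 1505.9 CPM in Empty and at 1699.7 and 1712.7 CPM in NeuT. Its difference was 0.20 ± 0.068 (adjusted p = 0.0266), the smallest of the 7 higher members. The S100A10 call was lost when any 1 of the 4 untreated libraries was left out (adjusted p = 0.0856 to 0.151) and with total counts alone (adjusted p = 0.135).

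S100A2, a p63 target known from basal epithelial cells, was the member with the strongest decrease. It stood at 2700.5 and 2498.8 CPM in Empty and at 975.3 and 980.2 CPM in NeuT, and the difference was -1.41 ± 0.096 (adjusted p = 5.01e-07). The groups lay far apart, and the replicates of NeuT were nearly equal. S100A14, an epithelial member linked to cell adhesion and invasion, stood at 893.7 and 874.2 CPM in Empty and at 763.0 and 795.7 CPM in NeuT, a difference of -0.18 ± 0.054 (adjusted p = 0.0115). The groups did not overlap, but the call was lost when any 1 of the 4 untreated libraries was left out (adjusted p = 0.0525 to 0.174). S100P, which binds ezrin and can signal through RAGE, stood at 318.1 and 318.9 CPM in Empty and at 269.2 and 303.9 CPM in NeuT, a difference of -0.15 ± 0.071 (adjusted p = 0.0993). Its NeuT replicates differed by more than the gap to the Empty libraries, and it passed the test as lower under 5 of 18 alternatives, total counts alone among them (adjusted p = 0.0119 to 0.0433 in those 5).

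The second comparison was the same contrast in the JG-98 libraries, which share no library with the first. NeuT was again higher for 7 members and lower for 2, against 41.7% of all tested genes called, 21.7% higher and 20.0% lower (of the called genes 52.0% were higher, and 41.0% with total counts alone). The members' groups did not overlap for 9 of 10, and for 67.6% of all tested genes. S100A8 stood at 2.18 and 1.82 CPM in Empty and at 17.6 and 11.2 CPM in NeuT with JG-98, a log2 difference of 2.86 ± 0.22 (adjusted p = 3.57e-07). The treated NeuT replicates were far apart for this gene, yet both were above 5 times either Empty value. S100A9 stood at 7.51 and 6.31 CPM in Empty and at 40.6 and 35.3 CPM in NeuT, a difference of 2.47 ± 0.11 (adjusted p = 1.09e-11), and S100A7 at 0.630 and 0.307 CPM in Empty and at 2.59 and 2.22 CPM in NeuT, a difference of 2.42 ± 0.34 (adjusted p = 1.66e-05).

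S100A6 stood at 1084.8 and 982.2 CPM in Empty and at 2350.5 and 2119.8 CPM in NeuT with JG-98, a difference of 1.11 ± 0.065 (adjusted p = 6.11e-10). S100A2 stood at 2873.8 and 2535.0 CPM in Empty and at 1030.2 and 827.9 CPM in NeuT, a difference of -1.54 ± 0.096 (adjusted p = 2.32e-07). For both genes the sublines remained clearly apart. S100A14 stood at 1112.8 and 1047.7 CPM in Empty and at 820.7 and 774.7 CPM in NeuT, a difference of -0.44 ± 0.054 (adjusted p = 4.35e-06), and this call held without each single library. S100A11 differed by 0.33 ± 0.064 (adjusted p = 0.00048), S100A4 by 0.42 ± 0.11 (adjusted p = 0.00541) and S100A10 by 0.21 ± 0.068 (adjusted p = 0.0207). S100P, at 362.6 and 341.0 CPM in Empty and 349.0 and 301.8 CPM in NeuT, overlapped between the sublines (-0.11 ± 0.071, adjusted p = 0.229). The S100A4 call was lost without Empty JG-98 replicate 2 (adjusted p = 0.0604) or NeuT JG-98 replicate 1 (adjusted p = 0.0511), and the S100A10 call without the same libraries (adjusted p = 0.299 and 0.151), with total counts alone (adjusted p = 0.12) or with only the 4 libraries compared (adjusted p = 0.0809). Without NeuT JG-98 replicate 1, S100P was called lower (adjusted p = 0.00712).

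**Figure D2:**
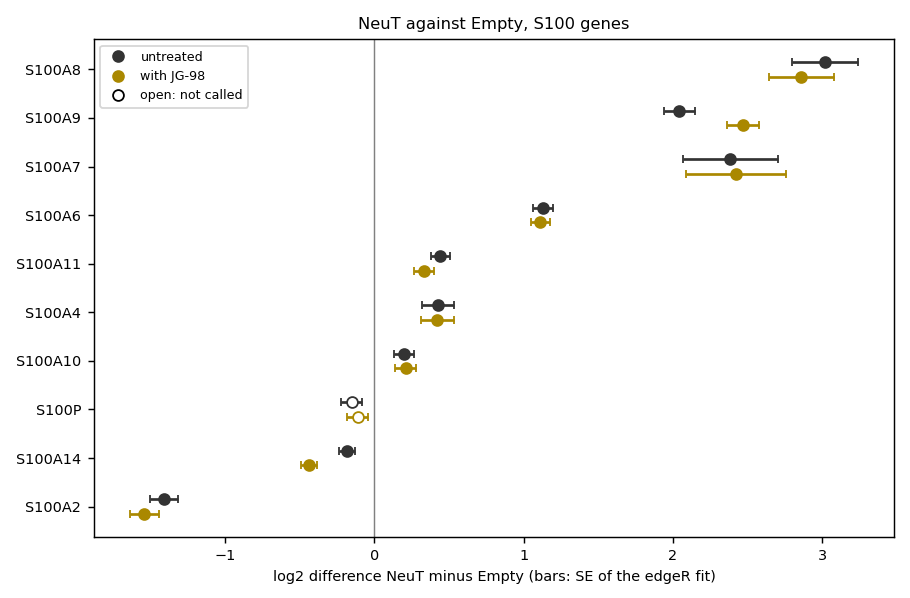
Log2 difference NeuT minus Empty (horizontal axis) of each S100 gene (vertical axis), untreated and with JG-98, with the SE of the edgeR fit as bars and open points for genes that were not called. S100A8, S100A9, S100A7 and S100A6 lie above 1 and S100A2 below -1 in both states, while S100P is open in both.

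The other comparisons asked what JG-98 did within each subline. In Empty cells S100A14 was the 1 member called, higher with JG-98, against 0.339% of all tested genes called, 0.260% higher and 0.0791% lower. From 893.7 and 874.2 CPM untreated it stood at 1112.8 and 1047.7 CPM with JG-98, a fold of 1.22 and a log2 difference of 0.29 ± 0.054 (adjusted p = 0.0233). The authors' deposited table gives 0.28 for the same contrast, with an adjusted p of 0.0256. The call was lost when any 1 of the 4 Empty libraries or either untreated NeuT library was left out (adjusted p = 0.0523 to 0.462). Of the other members, S100A8, S100A11 and S100P had both treated values above both untreated ones without passing the test, with log2 differences of 0.45 ± 0.26, 0.13 ± 0.064 and 0.14 ± 0.071 (adjusted p = 0.623, 0.551 and 0.536). S100A4 had both treated values below both untreated ones, at -0.09 ± 0.11 (adjusted p = 0.854). So 5 members' groups did not overlap in Empty cells, as for 43.1% of all tested genes.

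In NeuT cells edgeR called 0 of 10 members with JG-98, against 3.01% of all tested genes called, 2.01% higher and 1.01% lower. There 2 members, S100A9 and S100P, had an unadjusted p under 0.05, as did 2829 of all 17693 tested genes. DESeq2 and limma-voom also called 0 of 10, with 1 and 2 members at an unadjusted p under 0.05. S100A9 stood at 32.6 and 33.0 CPM untreated and at 40.6 and 35.3 CPM with JG-98, a log2 difference of 0.21 ± 0.093 (adjusted p = 0.273). It was the 1 member whose NeuT groups did not overlap, a state shared by 44.8% of all tested genes. S100P stood at 269.2 and 303.9 CPM untreated and at 349.0 and 301.8 CPM with JG-98, a difference of 0.18 ± 0.071 (adjusted p = 0.208). S100A8, at 17.6 CPM in treated replicate 1 but 11.2 CPM in replicate 2, overlapped with the untreated 12.3 and 11.2 CPM (0.29 ± 0.18, adjusted p = 0.477). The 2 treated NeuT libraries gave different values when 1 was left out. Without replicate 1, the log2 difference was -0.242 for S100A2 and -0.314 for S100A4. Without replicate 2, it was 0.57 for S100A8 and 0.276 for S100P.

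The test of whether the JG-98 effect differed between the sublines called 0 of 10 members in edgeR, DESeq2 and limma-voom, and edgeR called 0.00565% of all tested genes. In edgeR 2 members had an unadjusted p under 0.05, as did 1378 of all 17693 tested genes. S100A9 was 0.43 ± 0.15 log2 units more positive in NeuT than in Empty (adjusted p = 0.515), with -0.22 ± 0.11 in Empty and 0.21 ± 0.093 in NeuT. For S100A14 the NeuT effect minus the Empty effect was -0.26 ± 0.076 log2 units (adjusted p = 0.49), with 0.29 ± 0.054 in Empty and 0.03 ± 0.054 in NeuT. With single libraries left out, this difference ranged from -0.305 to -0.212 for S100A14 and from -0.304 to 0.00534 for S100A2. The S100A14 response of Empty cells was therefore not shown to differ from that of NeuT cells with all libraries in the fit.

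**Figure D3:**
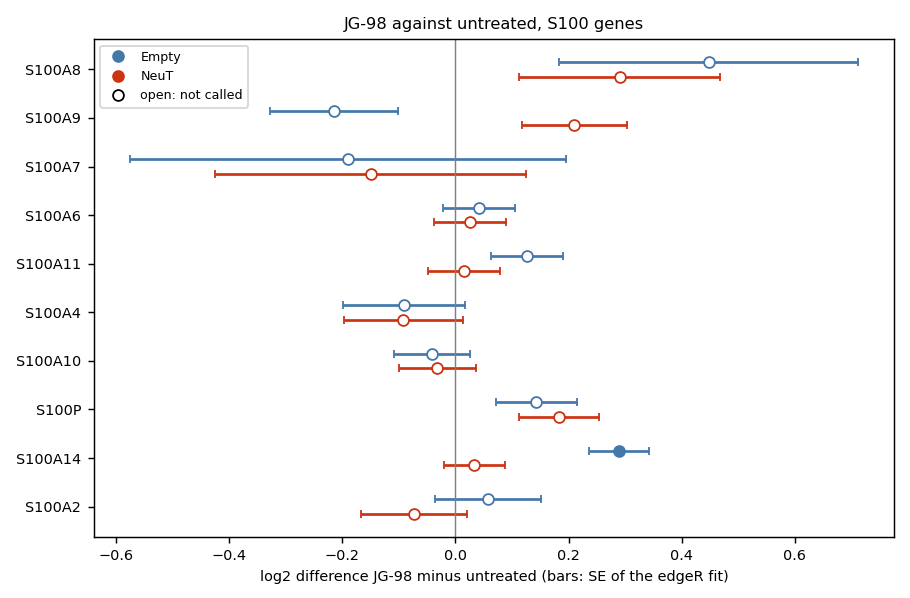
Log2 difference JG-98 minus untreated (horizontal axis) of each S100 gene (vertical axis) in Empty and NeuT cells, with the SE of the edgeR fit as bars and open points for genes that were not called. S100A14 in Empty cells, at 0.29, is the 1 filled point, and all values lie between -0.22 and 0.45.

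Levels of different genes were compared as CPM per kilobase of counted exon. In untreated Empty cells S100A2 led at 1659 CPM per kb, followed by S100A10 at 1468, S100A11 at 1197, S100A6 at 1034, S100A14 at 692 and S100P at 676. The remaining members were far lower, with S100A4 at 28.5, S100A9 at 13.9, S100A8 at 1.63 and S100A7 at 1.05, and no neighbours in this order overlapped between replicates. In untreated NeuT cells S100A6 led at 2262 CPM per kb, followed by S100A10 at 1686, S100A11 at 1627, S100A2 at 624, S100A14 at 610.3 and S100P at 608. The last 3 of these overlapped from 1 neighbour to the next. S100A9 at 57.2 then stood above S100A4 at 38.3, which reverses their order in Empty, and S100A8 at 13.2 and S100A7 at 5.49 came last.

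With JG-98 the same genes led, S100A2 at 1726 CPM per kb in Empty and S100A6 at 2302 in NeuT. S100A10 and S100A11 overlapped in both sublines with JG-98, and in NeuT so did S100P with S100A14 and S100A14 with S100A2. The per-kilobase ratio of S100A6 to S100A2 was 0.609 to 0.626 over the 4 Empty libraries and 3.602 to 4.132 over the 4 NeuT libraries. The ratio of S100A9 to S100A8 was 7.96 and 9.29 in untreated Empty, 5.36 and 5.38 in treated Empty, 4.11 and 4.57 in untreated NeuT, and 3.59 and 4.89 in treated NeuT. Calprotectin's subunits were thus not in a constant ratio of RNA, and the NeuT libraries had proportionally more S100A8. The summed level of all 10 members ranged over 6959 to 7935 CPM in Empty and 6717 to 7507 CPM in NeuT, so the sums overlapped while the makeup differed.

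For the 4 members of widest range, the genes of most similar pattern were found by the root mean square difference of centred log2 CPM over the 8 libraries. S100A9 (range 2.45 log2 units) was closest to LCN2, the antimicrobial lipocalin 2 (difference 0.129), then TUBAL3 (0.133) and PDCD1LG2 (0.133). LCN2 stood at 25.6 to 30.1 CPM in the Empty libraries and 109.6 to 141.4 CPM in the NeuT libraries. S100A8 (range 3.26) was closest to RUNX2 (0.216), LAPTM5 (0.22) and PI3, the elastase inhibitor elafin (0.221). S100A7 (range 2.50) was closest to CD86 (0.196), HSD17B2 (0.236) and EHD3 (0.239). S100A2 (range 1.55) was closest to KIF2C (0.0616), a mitotic kinesin, PIR (0.0639) and CEP55 (0.0701), a cytokinesis gene. KIF2C stood at 76.3 to 79.1 CPM in the Empty libraries and 23.7 to 28.2 CPM in the NeuT libraries. The nearest other member was S100A9 for S100A8 (0.423), S100A7 for S100A9 (0.285) and S100A14 for S100A2 (0.595). In all 4 cases non-S100 genes were closer than any other member. They were picked from 17693 tested genes, and the nearest member from the 10 members alone. The sizes of these pools all but fixed that order, so it does not tell whether members share a pattern.

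Of 11 further S100 genes, 5 were tested and 6 (S100A7A, S100A7L2, S100A12, S100B, S100G and S100Z) had 0 to 2 counts in each library. In untreated cells S100A16 and S100A13 were higher in NeuT, S100A1 and S100A3 were lower, and S100A5 did not pass, beside 42.0% of all tested genes called. S100A16, an abundant epithelial member, stood at 1101.0 and 1053.3 CPM in Empty and at 1392.2 and 1401.8 CPM in NeuT (0.37 ± 0.051, adjusted p = 1.34e-05). S100A13, which takes part in release of growth factors, stood at 25.5 and 24.7 CPM in Empty and at 30.6 and 32.4 CPM in NeuT (0.33 ± 0.10, adjusted p = 0.0174), and 24.2% of its counted bases overlap another annotated gene. S100A3, known from hair cuticle, stood at 15.2 and 13.6 CPM in Empty and at 10.2 and 12.1 CPM in NeuT (-0.37 ± 0.12, adjusted p = 0.018). S100A1, a heart and muscle member, rested on 29 and 33 counts in Empty and 11 and 14 in NeuT (-1.23 ± 0.46, adjusted p = 0.0388), and its call was lost without any 1 of those libraries (adjusted p = 0.081 to 0.176), in DESeq2 (adjusted p = 0.101) and without a filter on low counts (adjusted p = 0.0568). The S100A3 call was lost without replicate 1 of either untreated group (adjusted p = 0.165 and 0.231), and the S100A13 call without either Empty library or NeuT replicate 2 (adjusted p = 0.063 to 0.112). With JG-98, S100A16 (0.24) and S100A5 (1.11, from 24 and 16 counts in Empty and 40 and 61 in NeuT) were higher in NeuT and S100A3 was lower (-0.71), beside 41.7% of all tested genes called. The S100A5 call was lost without Empty JG-98 replicate 2 (adjusted p = 0.337) or NeuT JG-98 replicate 2 (adjusted p = 0.229), in DESeq2 (adjusted p = 0.0717) and with only the 4 libraries compared (adjusted p = 0.0613). Its log2 difference ranged from 0.57 to 1.77 when single libraries were left out. In either subline edgeR called 0 of the 5 with JG-98, with 0 at an unadjusted p under 0.05, and DESeq2 and limma-voom also called 0. Over all tested genes edgeR called 0.339% in Empty and 3.01% in NeuT, so a count of 0 of 5 is near the background.

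The chromosome 1 S100 cluster was taken from S100A10 to S100A1 (chr1:151982915-153632039, GRCh38, 1649125 bases). It holds 90 counted genes, of which 31 were tested, and it contains all members but S100P, which lies on chromosome 4. S100A10 and S100A11 sit at one end and the rest at the other. S100A9, S100A8 and S100A7, all higher in NeuT, lie near each other, with lower ends 1375, 1407 and 1475 kb from that of S100A10. S100A6, S100A4, S100A3 and S100A2 follow at 1552, 1561, 1564 and 1578 kb, where higher and lower genes stand side by side: S100A4 was higher in NeuT while S100A3, which lies within its bounds, and the adjacent S100A2 were lower. S100A16 and S100A14, neighbours at the far end, also differed in opposite directions. Among the 17 other tested genes of the interval, 11 were higher in NeuT, 1 was lower and 5 were not called. Over all tested genes 21.2% were higher and 20.8% lower. Of the 17, 13 had at least 10 counts on average in both untreated groups. CRCT1 and LCE3E, named after their values were seen, were called higher (3.26 and 9.51) and were not among those 13. A gene that passed the filter only through NeuT could only come out higher. The gene farthest up in the plot along the cluster is LCE3D, a cornified envelope gene named after its values were seen (log2 difference 5.15, adjusted p = 6.91e-11). Of 7 genes for S100-fused proteins of the cornified envelope, such as filaggrin, only TCHH was tested and it was not called (0.23, adjusted p = 0.794).

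**Figure D4:**
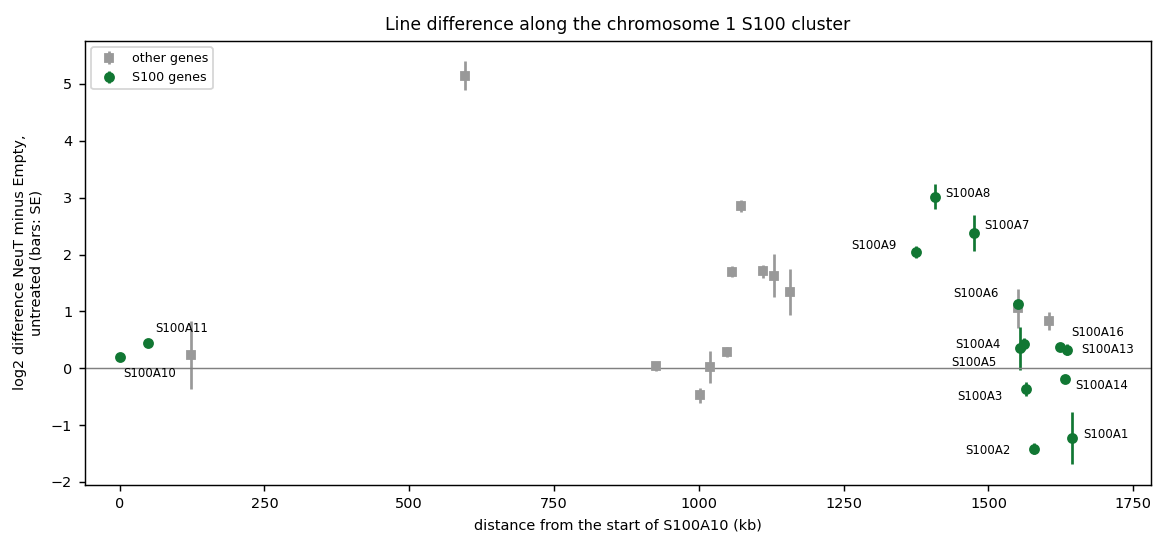
Log2 difference NeuT minus Empty in untreated cells (vertical axis, bars: SE) against distance in kb from the start of S100A10 (horizontal axis) for 14 S100 genes and 13 other genes with at least 10 counts on average in both groups. S100A7, S100A8 and S100A9 lie between 2.04 and 3.02, while S100A2, S100A3 and S100A14, a short way along, lie below 0.

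Genes that S100 proteins act on or respond to were taken from further lists. Of 8 S100 receptors, 7 were tested in untreated cells, and 2 were higher in NeuT, 2 were lower and 3 did not pass (median log2 difference -0.06). These 4 calls of 7 stand near the 42.0% called over all tested genes. TLR4, a receptor for S100A8 and S100A9, stood at 9.001 and 9.99 CPM in Empty and at 19.3 and 18.8 CPM in NeuT (1.00 ± 0.12, adjusted p = 2.16e-06). MCAM, an adhesion molecule that binds the same pair, was lower (-0.48, adjusted p = 3.78e-06), and BSG, the S100A9 receptor basigin, was higher (0.18, adjusted p = 0.0105). The BSG call was lost with total counts alone (adjusted p = 0.1) and without either Empty library or NeuT replicate 2 (adjusted p = 0.0529 to 0.11). AGER, which encodes RAGE, rested on 34 and 38 counts in Empty and 14 and 24 in NeuT and was not called (-0.85 ± 0.48, adjusted p = 0.173).

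Of 20 intracellular partners, 19 were tested, and 6 were higher in NeuT, 5 were lower and 8 did not pass (median 0.12). TP63, the basal epithelial transcription factor p63, stood at 2.70 and 2.79 CPM in Empty and at 7.26 and 7.74 CPM in NeuT (1.45 ± 0.14, adjusted p = 3.76e-07). It was thus higher in the subline in which S100A2, a known target of p63, was lower. ANXA1, the annexin bound by S100A11, differed by 0.61 (adjusted p = 3.69e-08). Named after their values were seen, ANXA2, the annexin bound by S100A10, was higher (0.45, adjusted p = 9.18e-07), while the S100P partner EZR was lower (-0.21, adjusted p = 0.00651). The list's share of called genes, 11 of 19, stands beside the 42.0% of all tested genes.

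Of 16 transcription regulators known to act on S100 genes, 15 were tested, and 6 were higher in NeuT, 4 were lower and 5 did not pass (median 0.12), beside 42.0% of all tested genes called. TP63, which is also on this list, and HIF1A, the oxygen-sensing factor, were higher (HIF1A 1.07 ± 0.053, adjusted p = 6.35e-11), and GRHL1, an epidermal grainyhead factor, was lower (-1.07 ± 0.11, adjusted p = 6.6e-07). Of 15 antimicrobial epithelial genes, 9 were tested, and 8 were higher in NeuT, 0 were lower and 1 did not pass (median 1.36), beside 21.2% of all tested genes called higher and 20.8% lower. The neutrophil chemokine CXCL8 stood at 14.5 and 12.4 CPM in Empty and at 102.4 and 100.9 CPM in NeuT (2.92 ± 0.16, adjusted p = 3.19e-06). PI3 differed by 2.81 (adjusted p = 9.83e-15) and LCN2 by 2.05 (adjusted p = 7.5e-12), sizes close to those of S100A7, S100A8 and S100A9. DESeq2 and limma-voom also called 0 of these 9 lower, and 8 of 9 had an unadjusted p under 0.05 in each tool.

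With JG-98, edgeR called 1 of 15 regulators, 1 of 9 antimicrobial genes and 0 of 7 receptors in NeuT cells, beside 3.01% of all tested genes. JUNB, an AP-1 subunit, stood at 194.3 and 189.7 CPM untreated and at 212.9 and 235.5 CPM with JG-98 (0.22 ± 0.058, adjusted p = 0.0441), and lost its call under 12 of 20 alternatives, among them 7 of the 8 in which 1 library was left out (all but treated NeuT replicate 1). CCL20, a chemokine with antimicrobial activity, stood at 47.8 and 50.5 CPM untreated and at 66.0 and 76.2 CPM with JG-98 (0.53 ± 0.088, adjusted p = 0.00243), and lost its call without untreated NeuT replicate 1 (adjusted p = 0.0859). In Empty cells edgeR called 0 genes of the 4 lists, beside 0.339% of all tested genes called. There 2 of 7 receptors, 3 of 19 partners, 6 of 15 regulators and 5 of 9 antimicrobial genes had an unadjusted p under 0.05, as did 1739 of all 17693 tested genes. limma-voom also called 0 there, and DESeq2 called 2 antimicrobial genes. For the NeuT receptors, 1 had an unadjusted p under 0.05 in edgeR, and DESeq2 and limma-voom called 0.

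**Figure D5:**
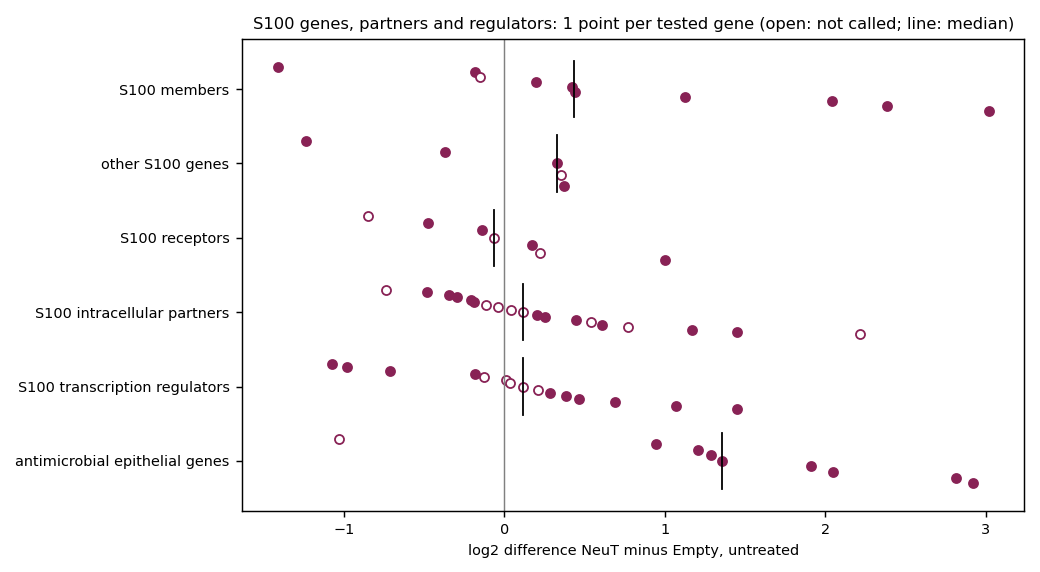
Log2 difference NeuT minus Empty in untreated cells (horizontal axis) of the tested genes of 6 lists (vertical axis), with 1 point per gene, open where not called, and a line at each list's median. The antimicrobial genes have a median of 1.36 and the S100 members one of 0.43, with S100A2 as the lowest member at -1.41.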

How the data were processed

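RNA from 8 libraries (4 groups of 2) was measured by sequencing of poly(A)-selected RNA. The authors deposited raw counts per gene with exon coordinates and gene lengths in bases, per the file headers, and separate tables of JG-98 against untreated in each subline with log2 fold changes, average log2 expression, p-values, adjusted p-values and a B score, per the file headers. The submitters' processing notes name Trim Galore 0.5.0, FastQC 0.11.7, HISAT2 2.1.0, SAMtools 1.9, featureCounts 1.6.3 and limma, with the builds GRCh38 and hg38. The strand setting and the handling of multi-mapping reads are not given in the sources used here, so reads of antisense or near-identical genes may be split between them. No member shares exonic bases with another annotated gene.

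The counts were fitted here in edgeR 4.0.16 (R 4.3.3) over all 8 libraries, with 1 mean per group, TMM scaling, filterByExpr (minimum count 10, minimum total 15) and robust quasi-likelihood tests, and Benjamini-Hochberg adjustment over the 17693 tested genes. No fit dropped or imputed a sample unless stated. Log2 CPM values for patterns and replicate differences use a prior count of 2, and log2 fold changes use edgeR's default. A gene was called at an adjusted p under 0.05. DESeq2 1.42.0 and limma-voom (limma 3.58.1) were alternatives, beside other scalings and filters, a minimum fold change and each library left out. On simulated data with 2-fold changes, the procedure recovered 67% to 75.3% of the changed genes, with 2 to 8 false calls per comparison. It made 0 false calls in Empty, where no change was simulated. Smaller changes were not simulated. Replicate numbers pair no samples by the labels, and correlations of replicate differences between groups ran from -0.101 to 0.244 over 9551 genes, so the numbers were not used as a block. Replicates were not duplicates: their counts differed by more than sampling noise (chi-square per gene 4.43 to 21).

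All 10 members are named. Every other S100 gene is named as tested or not. Of each further list the 3 called genes with the widest difference between untreated sublines and the 3 with the widest called JG-98 change are named, and for the 4 members of widest range the 3 genes of nearest pattern. Results for some listed genes are not reported here. The members and lists were chosen with earlier results of these data known. Upstream windows of 250 bases were cut from RefSeq promoters (GRCh38.p14), and all 10 members matched by symbol. Protein sequences were not used here.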

Additional observations from a re-analysis of the deposited data

Results flagged for a closer look

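For S100A1 and S100A16, both treated libraries lay on one side of both untreated libraries in Empty cells and on the other side in NeuT cells. The Empty libraries had S100A1 at 0.511 and 0.578 CPM untreated and 0.420 and 0.324 CPM treated, and the NeuT libraries at 0.201 and 0.260 CPM untreated and 0.333 and 0.481 CPM treated. The difference between the sublines in the JG-98 effect was 1.38 on the log2 scale and did not pass the test (edgeR adjusted p = 0.635), on 11 to 33 counts per library. The Empty libraries had S100A16 at 1101.0 and 1053.3 CPM untreated and 1125.5 and 1107.6 CPM treated, and the NeuT libraries at 1392.2 and 1401.8 CPM untreated and 1347.7 and 1281.7 CPM treated. That difference was -0.14 and did not pass either (edgeR adjusted p = 0.665). The other 13 tested S100 genes did not have this pattern. Treated and untreated groups did not overlap for 43.1% of all tested genes in Empty and 44.8% in NeuT. The share of all genes with opposite directions was not counted.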

How the results depend on the processing

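Of 1454 single-gene values under alternatives, 1319 kept their direction and side of the threshold, 83 lost a call, 14 gained one and 38 changed sign, 37 of those 38 when 1 library was left out. The cause was not tested. Where leaving out a library leaves a group with 1, that sample is assumed to vary like the other groups. With a minimum log2 fold change of 1, the members called were 4 between untreated sublines, 4 between treated sublines and 0 for JG-98 in Empty. With single libraries left out, the log2 difference between sublines kept its sign for all 10 members, untreated and with JG-98. Counts of called members in those fits are not compared, because each leaves 1 library in a group. With the replicate block the members called were 9 between untreated sublines and 9 between treated sublines. They were 1 for JG-98 in Empty, 0 in NeuT and 0 for the difference in JG-98 effect. These counts were as without the block, so the block changed no count of member calls. Over all tested genes the block gave 7497, 7451, 66, 593 and 1 calls in the same order. Crossed numbers in NeuT, chosen after seeing the data, called 0 members, as did the uncrossed block, with 943 and 363 genes called in all.

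Over all genes, JG-98 calls in Empty were 60, against 282 without a filter, 146 in DESeq2, 205 with only the 4 libraries compared, 9 to 38 without 1 of the Empty or untreated NeuT libraries, and 417 and 404 without NeuT JG-98 replicate 1 and 2. In NeuT they were 533, against 1000 without a filter, 185 with only 4 libraries, 132 and 143 without untreated NeuT replicate 1 and 2, 343 and 344 without untreated Empty replicate 1 and 2, and 2133 without treated NeuT replicate 1. For the difference in JG-98 effect 1 gene was called, against 138 without a filter, 19 in DESeq2, 2 with total counts alone, 3 without robust estimation and 1 to 777 with a library left out. A minimum fold change gave 609, 685, 2, 18 and 0 calls over the 5 comparisons.

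Values that changed sign, as log2 ranges with 1 library left out, were all uncalled in the full fit. For JG-98 in Empty they were S100A2 (-0.0366 to 0.143), S100A6 (-0.0323 to 0.11), S100A7 (-0.728 to 0.347) and S100A10 (-0.167 to 0.0727). In NeuT they were S100A2 (-0.242 to 0.0672), S100A4 (-0.314 to 0.0895), S100A6 (-0.053 to 0.0899), S100A8 (-0.0724 to 0.57), S100A10 (-0.0958 to 0.0191), S100A11 (-0.0577 to 0.075) and S100A14 (-0.0106 to 0.0665). For the difference in JG-98 effect they were S100A2 (-0.304 to 0.00534), S100A4 (-0.227 to 0.176, and 0.00538 without a filter), S100A6 (-0.0995 to 0.0576), S100A7 (-0.497 to 0.578), S100A8 (-0.526 to 0.118), S100A10 (-0.104 to 0.135) and S100P (-0.0751 to 0.129). Between treated sublines it was S100A1 (-0.138 to 0.396). Depth limits S100A7, S100A1 and S100A5, which have under 50 counts in some libraries.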
